A study of Mus musculus with 20 samples.

Results

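Matrix metalloproteinases (Mmp genes), ADAMTS proteases (Adamts genes) and their tissue inhibitors (Timp genes) were described in 20 tumor-free mouse mammary glands. Members were all genes whose platform symbol is Mmp, Adamts or Timp followed by a number and at most 1 letter. This gave 37 of 18194 genes: 18 Mmp, 15 Adamts and 4 Timp genes. Where a gene had several probe sets, the 1 with the highest mean value was read. A gene was tested where it exceeded 6.85, the median of all log2 values, on at least 3 arrays, and 23 members met this: 11 Mmp, 8 Adamts and 4 Timp genes.

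All mice were FVB/N females heterozygous for the NRL-TGFα transgene of line 1372-1, in which the neu-related lipocalin promoter drives transforming growth factor alpha in mammary epithelium. No animal without the transgene was among the 20. A subcutaneous implant was placed at 8.5 weeks, with 5 mg tamoxifen, a selective oestrogen receptor modulator, or with carrier alone (placebo). The number 4 gland was taken at 20.5 to 21 weeks, 4 weeks after treatment had ended, and tumors were scored afterwards, up to the age of 2 years. Placebo animals fell into 7 with a later tumor and 3 without, and tamoxifen animals into 3 with a later tumor and 7 without. Each array came from 1 gland of 1 animal, so all values precede the tumor and come from another gland. In RNA of a whole gland, fewer cells of a type and less RNA per cell cannot be told apart.

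Mmp genes encode zinc proteases that cut collagens, laminins, other matrix proteins and many cell surface proteins, and most are made as inactive precursors. Adamts genes encode secreted proteases with thrombospondin repeats; several cut the large proteoglycans versican and aggrecan. Timp proteins bind the active site of these proteases. In the mammary gland, mostly stromal cells make them, and they take part in duct branching and in the remodelling that follows weaning.

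Of the members, 9 Mmp genes lie in a row on chromosome 9 in the order Mmp13, Mmp12, Mmp1b, Mmp3, Mmp1a, Mmp10, Mmp8, Mmp20 and Mmp7, with Mmp27 as the 1 other protein-coding gene between them. Promoter windows from RefSeq (GRCm38.p6; 250 bases before to 50 after the start) were matched for 23 members. Each window was searched on both strands for the AP-1 motif TGAGTCA (reverse complement TGACTCA) and for the TATA box TATAAA; these letters do not overlap each other. AP-1 letters stood in the windows of 7 of these 9 genes, and in those of 0 of the 14 other members. Over all 32851 windows, 5.2% held AP-1 letters. TATAAA stood in all 9 and in 1 of the 14 others, Adamts1, against 13.6% of all windows, and both motifs in 7 of the 9, against 0.941%. The 130 bases before the start follow for Mmp3, Mmp10, Mmp7 and Mmp12, shown because they are the 4 genes of the row that were tested. Capitals mark AP-1 and TATAAA letters. The intervals, all on the plus strand, are chr9:7445692-7445821 for Mmp3, chr9:7502212-7502341 for Mmp10, chr9:7691960-7692089 for Mmp7 and chr9:7347244-7347373 for Mmp12.
Mmp3: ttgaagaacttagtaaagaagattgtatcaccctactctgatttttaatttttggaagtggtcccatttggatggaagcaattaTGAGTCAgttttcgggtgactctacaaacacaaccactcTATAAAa
Mmp10: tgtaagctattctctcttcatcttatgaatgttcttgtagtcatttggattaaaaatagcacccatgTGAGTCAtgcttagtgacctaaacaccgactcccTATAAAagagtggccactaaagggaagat
Mmp7: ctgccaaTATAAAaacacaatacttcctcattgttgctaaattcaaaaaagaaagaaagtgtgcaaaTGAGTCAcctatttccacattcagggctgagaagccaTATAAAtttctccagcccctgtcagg
Mmp12: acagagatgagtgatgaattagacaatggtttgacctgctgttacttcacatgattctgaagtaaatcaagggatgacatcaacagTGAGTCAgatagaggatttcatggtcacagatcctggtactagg

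The second of these motifs is outside the printed stretch of Mmp12, whose TATAAA lies after the annotated start. Mmp12 and Mmp7 each have another RefSeq start whose 130 bases held neither motif. For contrast, the same stretch follows for 2 members elsewhere in the genome that are described below, Adamts9 (chr6:92943535-92943664, minus strand) and Mmp14 (chr14:54431468-54431597, plus strand). Neither holds the letters of either motif. A match is a run of letters and not a measured binding site.
Adamts9: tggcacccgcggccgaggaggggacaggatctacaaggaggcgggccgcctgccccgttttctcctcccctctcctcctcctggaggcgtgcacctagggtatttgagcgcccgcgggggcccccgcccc
Mmp14: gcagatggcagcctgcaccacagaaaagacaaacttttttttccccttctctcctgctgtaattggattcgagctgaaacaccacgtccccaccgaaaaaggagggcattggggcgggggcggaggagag

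The values are deposited log2 expression, and the number of arrays limits their precision. Array medians lay between 6.82 and 6.89, and pairwise correlations of arrays over all probe sets ran from 0.977 to 0.997. On the first principal component of the 12499 genes tested, with 31.9% of the variance, placebo animals 8, 7 and 9 lay farthest out. They were at -41.13, -30.94 and -14.64, and all had a later tumor. Among the 37 members, placebo animal 8 had the lowest value of the 20 arrays in 9 and the highest in 4, and placebo animal 7 had the highest in 7 and the lowest in 3. For several members, values without some of these animals are given below.

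All 3 marker genes were measured above the filter level on all 20 arrays. Mmp2, which encodes gelatinase A, ran from 10.70 to 12.00, and Timp3, the inhibitor that binds to the matrix, from 10.46 to 11.67. Mmp3, which encodes a stromelysin, ran from 7.19 to 9.76, a range of 2.57 on the log2 scale. Under the filter stayed 14 members: Mmp1a, Mmp1b, Mmp8, Mmp13, Mmp16, Mmp17, Mmp20, Adamts3, Adamts4, Adamts6, Adamts7, Adamts18, Adamts19 and Adamts20. Their group values have no test. Of the tested members, Mmp12 passed the filter on 4 arrays, Mmp10 on 7, Mmp11 on 17 and Timp1 on 18, and the other 19 on all 20.

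**Figure D1:**
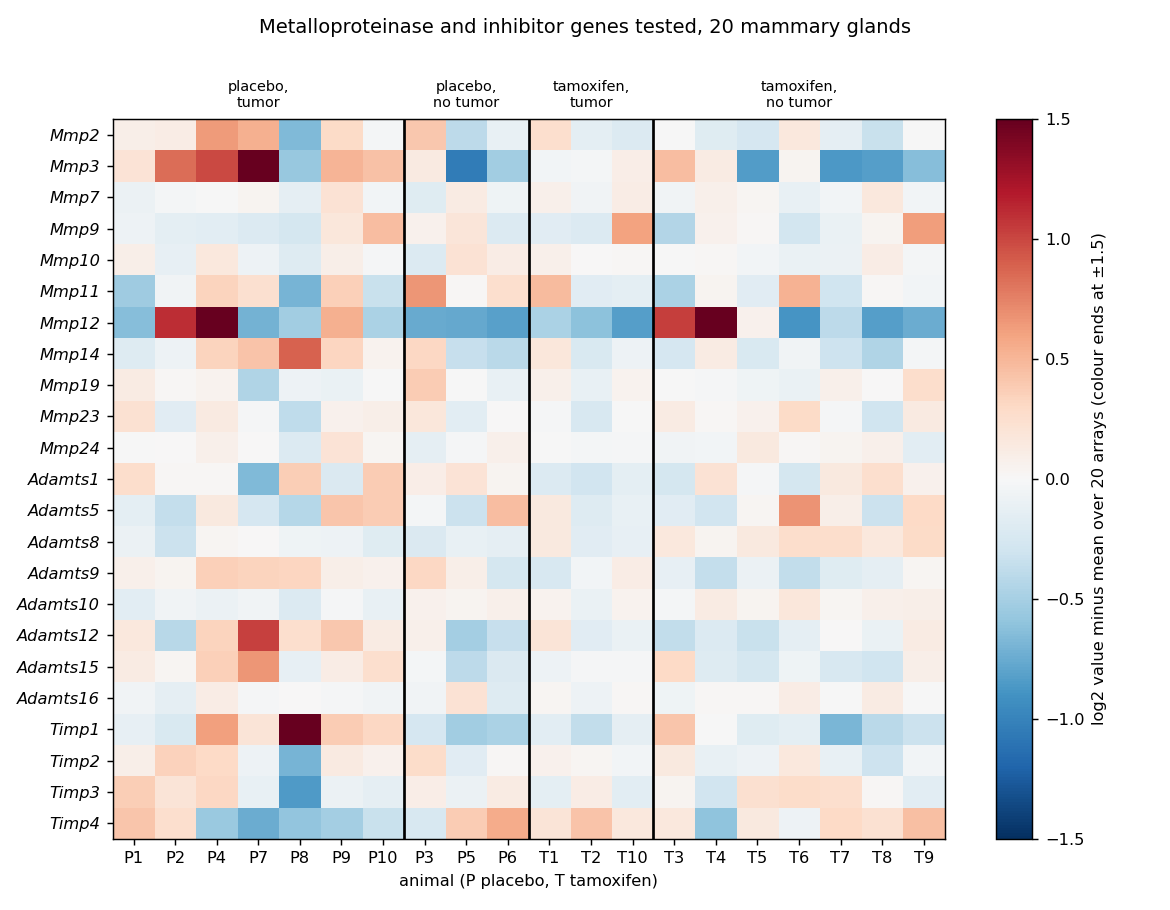
Log2 value minus the gene's mean over 20 arrays for the 23 members tested (rows) in each animal (columns, P placebo and T tamoxifen, split by lines into the 4 groups), on a colour scale that ends at 1.5 in either direction. Deep colours stand in Mmp3, Mmp12 and Timp1, and the columns of placebo animals 7 and 8 differ from their neighbours in many rows.

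The contrast between tamoxifen animals without a tumor and placebo animals with one set the largest groups against each other, 7 against 7, and asked how the most common course under tamoxifen differed from the most common course under placebo. Adamts8 and Adamts10 were higher and Adamts9 was lower in the tamoxifen animals without a tumor. No Mmp or Timp gene passed the test there. So 3 of 23 members, or 13%, were called, against 4.63% of the 12499 genes tested (limma, Benjamini-Hochberg adjusted p under 0.05 over all genes). Of the members 2 rose and 1 fell, while 2.23% of all genes rose and 2.4% fell. The median difference over the 23 members was 0.0094, against 0.0099 over all genes. At an unadjusted p under 0.05 there were 8 members, 34.8%, against 20.4% of all genes. The contrast changes treatment and outcome together, so their parts cannot be told apart in it.

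Adamts8, a secreted protease first known for blocking the growth of blood vessels, was the member with the smallest p. In tamoxifen animals without a tumor its lowest, median and highest log2 values were 7.30, 7.43 and 7.55. In placebo animals with a tumor they were 6.95, 7.19 and 7.30. The lowest of the former group (7.305) stood just above the highest of the latter (7.299), so the groups did not overlap. The other groups lay low or spread: placebo animals without a tumor were at 7.05, 7.13 and 7.15, and tamoxifen animals with a tumor at 7.09, 7.15 and 7.42. Adamts8 rose by 0.29 ± 0.060 (SE) on the log2 scale, 1.22-fold, with an adjusted p of 0.0114 (limma). All 7 tamoxifen animals without a tumor were above the placebo tumor median. Groups of 7 that did not overlap were found for 2 members, Adamts8 and Adamts9, and for 1.45% of all genes tested.

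Adamts9, which encodes a protease that cuts versican and aggrecan, was at 8.56, 8.80 and 8.95 (lowest, median, highest) in tamoxifen animals without a tumor and at 8.97, 9.02 and 9.29 in placebo animals with one. All 7 values of the first group lay below all 7 of the second. Adamts9 fell by 0.36 ± 0.089 (SE) on the log2 scale, 1.28-fold (limma adjusted p = 0.0279). A second probe set of the gene, with a mean of 7.66, differed by 0.05 ± 0.054 (SE) in the other direction. The call was thus read from 1 of the gene's 3 probe sets, and the remaining one is not described here. Adamts10, whose product binds fibrillin microfibrils, was at 8.56, 8.66 and 8.75 against 8.38, 8.49 and 8.56, and the groups overlapped only at the placebo animal at 8.563 and the tamoxifen animal at 8.558. It rose by 0.17 ± 0.042 (SE), 1.12-fold, with a limma adjusted p of 0.0271. Its other probe set stayed under the filter and was not tested. With the mean of all probe sets of each gene, neither call held, at -0.22 for Adamts9 (adjusted p = 0.0654) and 0.12 for Adamts10 (0.105).

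The Adamts8 call held whichever single animal was left out, at 0.25 to 0.31 and limma adjusted p of 0.00724 to 0.0287. It also held without placebo animals 7, 8 and 9 (0.33, adjusted p = 0.0357). With the animal number as a replicate block, Adamts8 did not pass (0.21, limma adjusted p = 0.062). Blocked in this way, the contrast rests only on numbers 4, 7, 8 and 9, and no label states that numbers pair animals. In the comparison of all tamoxifen with all placebo animals, Adamts8 passed with the block (limma adjusted p = 0.0262). The Adamts9 call was lost without placebo animal 4 (-0.33, adjusted p = 0.051), placebo animal 7 (-0.33, 0.0632), placebo animal 8 (-0.34, 0.0586), tamoxifen animal 4 (-0.33, 0.0646) or tamoxifen animal 6 (-0.33, 0.0596), and the Adamts10 call without placebo animal 8 (0.15, 0.0535), tamoxifen animal 4 (0.16, 0.0609) or tamoxifen animal 6 (0.15, 0.0575). Without placebo animals 7, 8 and 9 together, Adamts9 stood at -0.31 (adjusted p = 0.204) and Adamts10 at 0.17 (0.0877). Adamts15 is the direct neighbor of Adamts8 on chromosome 9, with no protein-coding gene between them. Its difference in this contrast was -0.30 and did not pass (limma adjusted p = 0.121), against 0.29 for Adamts8.

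**Figure D2:**
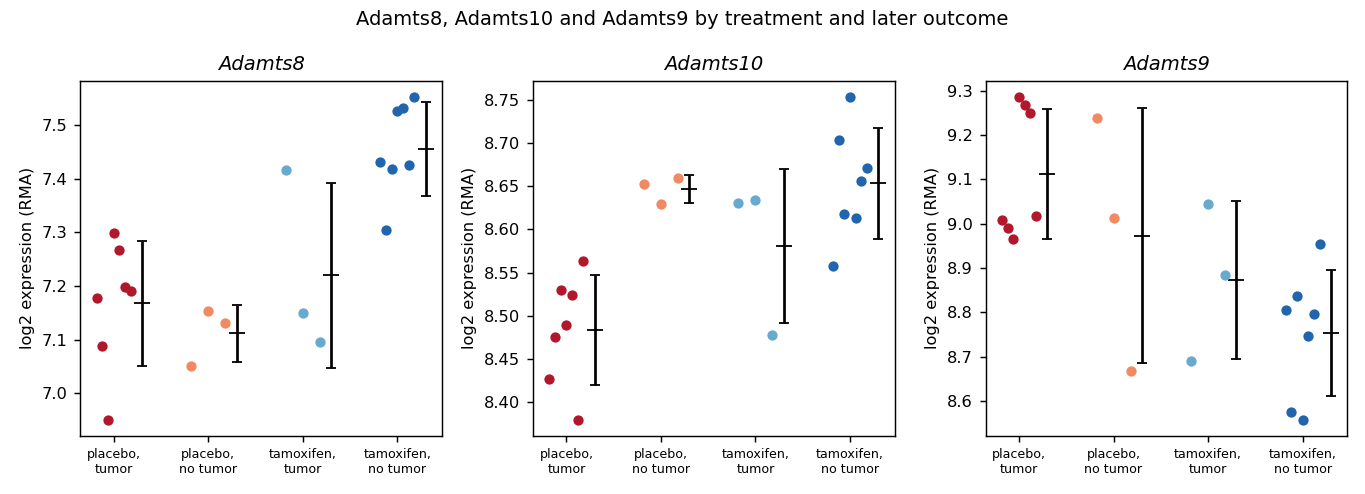
Log2 expression of Adamts8, Adamts10 and Adamts9 in each animal (points) by treatment and later outcome, with the mean and SD of each group beside it. The axes do not start at 0. Tamoxifen animals without a tumor were highest in Adamts8, between 7.30 and 7.55, and lowest in Adamts9, with a median of 8.80.

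Markers of several cell types were called in the same contrast, in which 2.23% of all genes tested rose and 2.4% fell. Markers are counted below as risen or fallen only at a limma adjusted p under 0.05. Of 9 pan-epithelial markers, 7 fell, and the mean log2 level of the list ran from 8.60 to 9.57 in tamoxifen animals without a tumor and from 9.44 to 10.61 in placebo animals with one. Of 8 milk and alveolar markers, 7 fell, with list means of 7.0 to 7.77 against 9.49 to 12.72. All 6 measured T cell markers rose (9.50 to 10.48 against 9.19 to 9.71), and 5 of 6 skeletal muscle markers rose (7.87 to 12.31 against 5.93 to 8.91). Of 10 fibroblast markers 1, Lum, fell, and the median difference over the list was -0.197 (list means of 11.52 to 12.10 against 11.69 to 12.21). Of 6 macrophage markers 0 were called (9.10 to 10.07 against 8.90 to 10.09). Of the others, 1 of 6 tested basal markers fell (Myh11) and 1 of 6 tested neutrophil markers rose (Prtn3), while 0 of 7 white adipocyte, 0 of 5 endothelial, 0 of 4 tested mast cell and 0 of 3 measured B cell markers were called. The part of these markers in the Adamts results was not tested.

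Among the Mmp genes, the stromelysin gene Mmp3 had the widest gap between these groups in the members with a p under 0.05. Placebo animals with a tumor were at 7.67, 8.75 and 9.76 (lowest, median, highest), and tamoxifen animals without a tumor at 7.38, 7.59 and 8.70. Placebo animals without a tumor were at 7.19, 7.72 and 8.37, and tamoxifen animals with a tumor at 8.20, 8.21 and 8.34. All 4 groups overlapped others, and the highest value was that of placebo animal 7. The 7 against 7 difference was -0.93 ± 0.28 (SE), 1.90-fold, and did not pass (limma adjusted p = 0.0633). It passed without placebo animal 8, the lowest of its group (-1.11, adjusted p = 0.0231). It also passed without tamoxifen animal 3, the highest of its group (-1.06, 0.0447). Leaving out any of the other 18 animals singly, it did not pass. Over all 20 omissions the difference ran from -1.11 to -0.77, with limma adjusted p up to 0.14.

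Mmp14, the membrane-bound protease that activates the Mmp2 precursor at the cell surface, was at 10.35, 10.87 and 11.43 in placebo animals with a tumor and at 10.09, 10.32 and 10.66 in tamoxifen animals without one. Placebo animals without a tumor were at 10.14, 10.20 and 10.85, and tamoxifen animals with a tumor at 10.32, 10.47 and 10.72. The groups overlapped, and placebo animal 8 was highest. The 7 against 7 difference of -0.42 ± 0.15 (SE) did not pass (limma adjusted p = 0.109), and its other tested probe sets stood at -0.45 and -0.23. With single animals left out, the difference ran from -0.50 to -0.32 and did not pass. Mmp2 itself averaged 11.50 ± 0.43 (SD, n = 7) in placebo animals with a tumor, 11.33 ± 0.41 (SD, n = 3) in those without, 11.33 ± 0.25 (SD, n = 3) in tamoxifen animals with a tumor and 11.26 ± 0.17 (SD, n = 7) in those without. Its 7 against 7 difference was -0.24 ± 0.16 (SE; adjusted p = 0.416).

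The inhibitor Timp1 ran from 7.12 to 9.44 with a median of 7.65 in placebo animals with a tumor, and from 6.66 to 7.76 with a median of 7.16 in tamoxifen animals without one. The groups overlapped, and the value of 9.44 belonged to placebo animal 8, with the next at 7.96. The difference of -0.65 ± 0.26 (SE) did not pass (limma adjusted p = 0.157), and without placebo animal 8 it was -0.38. Timp3, which also inhibits Adamts proteases, averaged 11.26 ± 0.41 and 11.36 ± 0.22 in these groups (SD, n = 7 each), a difference of 0.10 ± 0.15 (SE) whose sign turned without placebo animal 8 (-0.04). Timp2, the inhibitor that links Mmp14 to the Mmp2 precursor, averaged 12.36 ± 0.35 and 12.30 ± 0.16 (SD, n = 7 each). Timp4 ran from 8.27 to 9.44 in placebo animals with a tumor and averaged 9.11 ± 0.34 (SD, n = 7) in tamoxifen animals without one, a difference of 0.38 ± 0.19 (SE; adjusted p = 0.259).

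Adamts12, which cuts cartilage oligomeric matrix protein, was at 8.94, 9.60 and 10.37 in placebo animals with a tumor and at 8.98, 9.21 and 9.48 in tamoxifen animals without one. Adamts15, which cuts versican, was at 7.61, 7.86 and 8.39 against 7.43, 7.54 and 8.02. In both genes placebo animal 7 was highest of all 20 and the groups overlapped. Neither difference passed, at -0.41 ± 0.15 (SE; limma adjusted p = 0.13) for Adamts12 and -0.30 ± 0.11 (SE; 0.121) for Adamts15. Without placebo animal 7 they stood at -0.29 and -0.22. Without placebo animal 2, the lowest of its group, Adamts12 stood at -0.53 and passed (adjusted p = 0.0315). The 15 members with an unadjusted p of at least 0.05 had differences between -0.24 and 0.38.

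**Figure D3:**
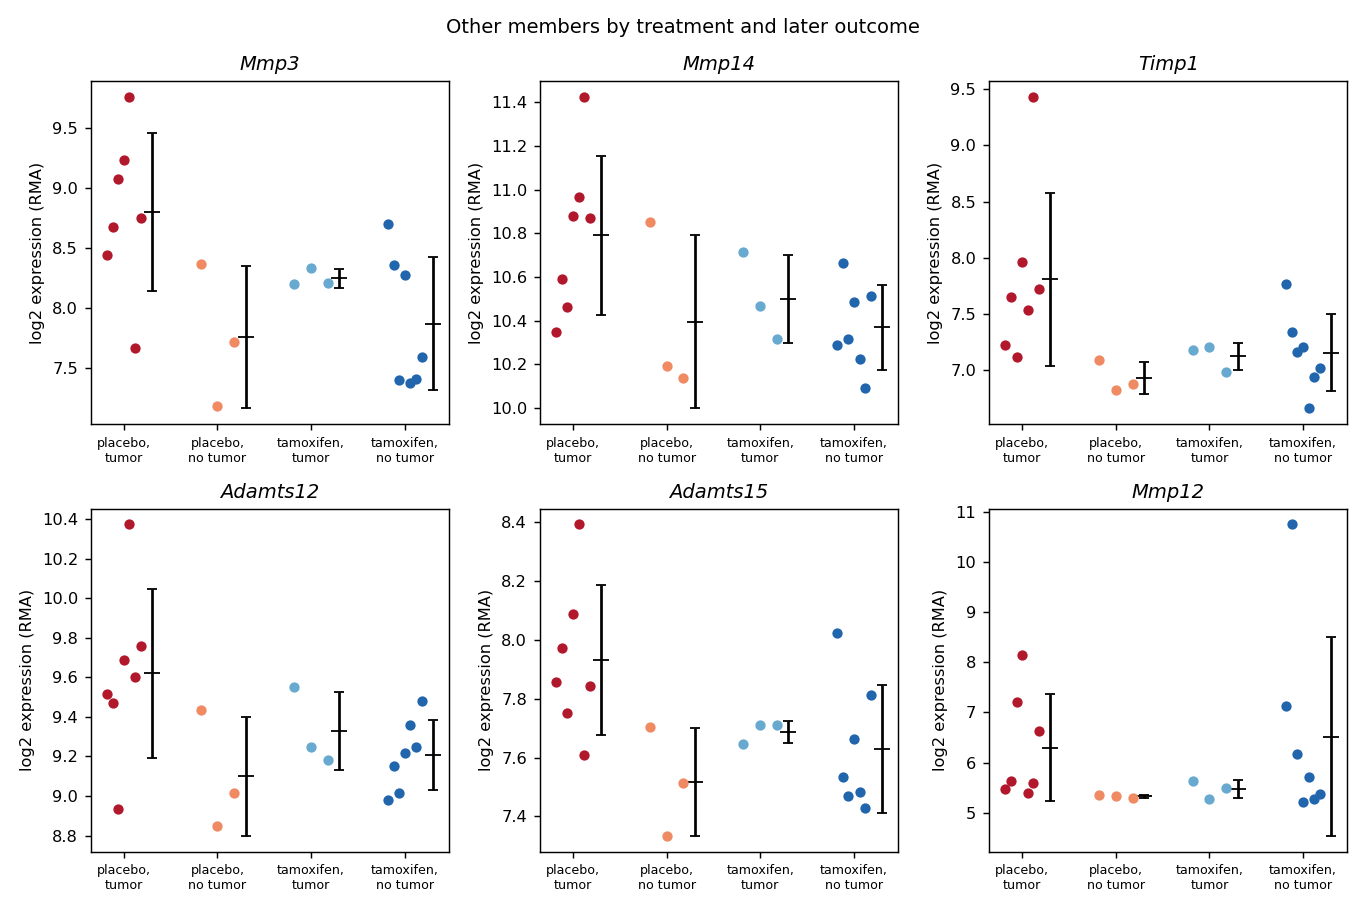
Log2 expression of Mmp3, Mmp14, Timp1, Adamts12, Adamts15 and Mmp12 in each animal (points) by treatment and later outcome, with the mean and SD of each group beside it. The axes do not start at 0. Single animals stand high: placebo animal 8 in Mmp14 and Timp1, placebo animal 7 in Mmp3, Adamts12 and Adamts15, and tamoxifen animal 4 in Mmp12 at 10.75.

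The outcome comparison set all 10 animals with a later tumor against all 10 without, as the study's design names it. It shares all animals of the 7 against 7 contrast. Of the animals with a tumor 7 had placebo, and of those without 3, so treatment is partly mixed into this comparison. No member was called: 0 of 23, against 0.232% of all genes (29 of 12499, limma). At an unadjusted p under 0.05 there were 8 members, 34.8%, against 16.5% of all genes. Of these, Mmp3, Mmp14, Timp1, Adamts9, Adamts12 and Adamts15 had higher means with a tumor, and Adamts8 and Adamts10 lower ones. The median difference over the members was 0.0028, against -0.010 over all genes. Of 8 milk and alveolar markers, 6 rose with a tumor (Btn1a1, Csn1s1, Csn1s2a, Csn2, Csn3 and Elf5), with a median difference of 1.67 over the list. Its mean log2 level ran from 9.49 to 12.72 in placebo and from 7.46 to 9.87 in tamoxifen animals with a tumor, and from 7.30 to 8.69 and from 7.0 to 7.77 in those without. No marker of the other lists was called for outcome, and the part of the milk markers in these differences was not tested.

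Adamts10 averaged lower in the animals with a tumor by 0.14 ± 0.036 (SE) on the log2 scale, the member with the smallest adjusted p, 0.0838 (limma). It passed when tamoxifen animal 1 was left out (adjusted p = 0.0443). In the other 19 omissions of 1 animal it did not pass, with limma adjusted p up to 0.151. Mmp3 was 1.73-fold higher on average, at 0.79 ± 0.24 (SE; adjusted p = 0.115), and all 10 animals with a tumor were above the median of those without. The other differences were 0.33 ± 0.13 (SE) for Mmp14, with 10 of 10 animals above, and 0.51 ± 0.23 (SE) for Timp1, with 9 of 10 above and 0.31 without placebo animal 8. Their adjusted p were 0.194 and 0.268. Adamts12 (0.36), Adamts15 (0.26), Adamts9 (0.22) and Adamts8 (-0.17) had adjusted p between 0.17 and 0.224. For outcome within 1 treatment, Adamts8 differed by 0.056 in placebo and by -0.24 in tamoxifen animals.

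**Figure D4:**
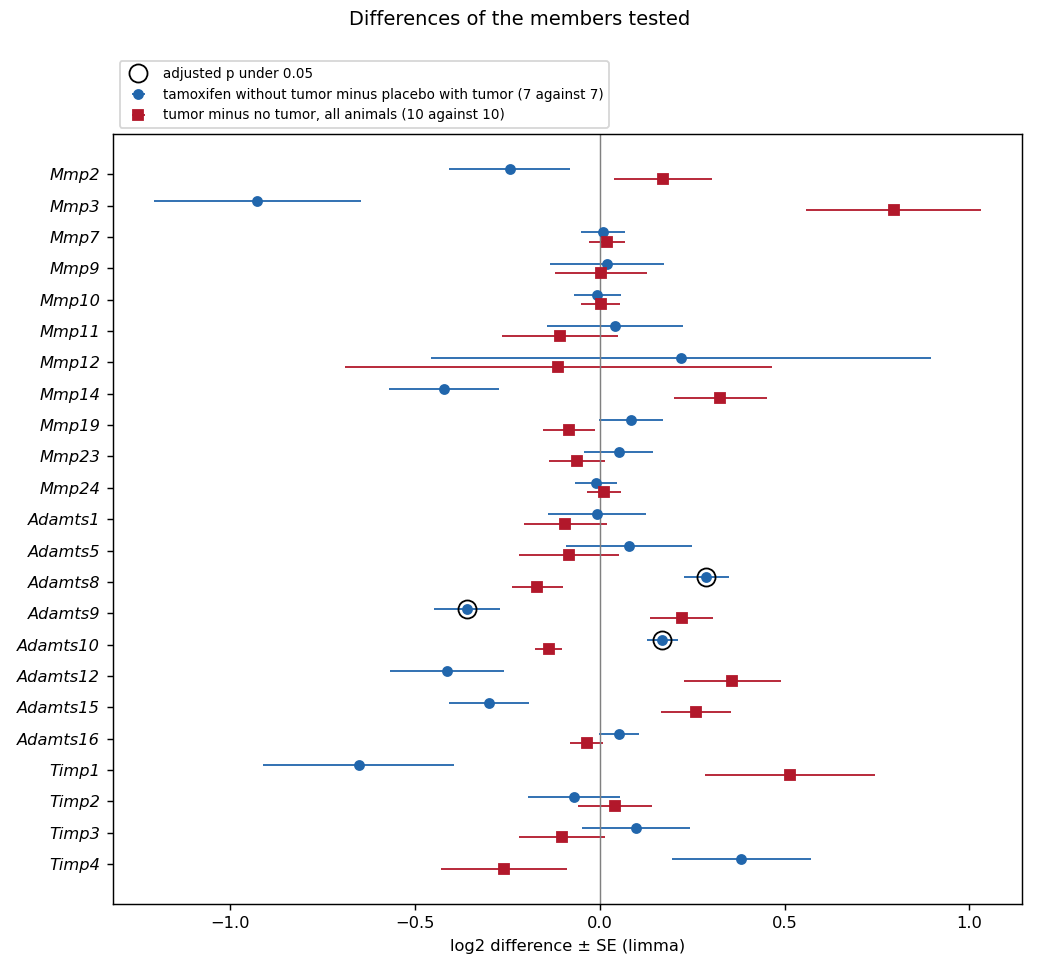
Log2 difference with its SE (limma) for each of the 23 members tested, as blue circles for tamoxifen animals without a tumor minus placebo animals with one (7 against 7) and red squares for tumor minus no tumor (10 against 10). The contrasts share animals and run in opposite directions of outcome. Rings mark an adjusted p under 0.05, and stand at Adamts8 (0.29), Adamts9 (-0.36) and Adamts10 (0.17) in the 7 against 7 contrast.

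The treatment comparison set all 10 tamoxifen animals against all 10 placebo animals, which are the same 20 arrays again. A later tumor came in 3 of the tamoxifen and 7 of the placebo animals, so outcome is partly mixed into this comparison. No member was called: 0 of 23, against 0.008% of all genes (1 gene, limma). At an unadjusted p under 0.05 there were 3 members, 13%, against 13.9% of all genes, namely Adamts8, Adamts9 and Adamts10. Adamts8 differed by 0.23 ± 0.059 (SE; adjusted p = 0.119), with 8 of 10 tamoxifen animals above the highest placebo value. Adamts9 differed by -0.28 ± 0.076 (SE; 0.131), with 2 of 10 below the lowest placebo value, and Adamts10 by 0.10 ± 0.042 (SE; 0.29). Adamts8 passed without tamoxifen animal 2 (adjusted p = 0.0429) and Adamts9 without placebo animal 6 (0.0434). Neither passed in its other 19 omissions of 1 animal, with limma adjusted p up to 0.21 for Adamts8 and 0.24 for Adamts9. The 20 other members ran from -0.50, in Mmp3, to 0.28, in Timp4. Between treatments Mmp3 differed by 0.11 among animals without a tumor and by -0.55 among those with one.

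Within placebo animals, the 7 with a tumor were set against the 3 without, and 0 of 23 members were called, against 0.008% of all genes (limma). At an unadjusted p under 0.05 there were 6, 26.1%, against 14.1%: Adamts10, Adamts15, Mmp3, Timp1, Adamts12 and Timp4. Adamts15 differed by 0.41, Adamts12 by 0.52 and Timp4 by -0.53, with limma adjusted p of 0.22, 0.263 and 0.341. The groups did not overlap in 3 members, against 4.66% of all genes: Timp1 and Mmp12 were higher and Adamts10 lower with a tumor. In Mmp12, which ran from 5.29 to 5.35 without a tumor and from 5.40 upward with one, most of these values lay under the filter level. Timp1 was at 6.83, 6.87 and 7.09 in the 3 animals without a tumor, below the 7.12 of the lowest animal with one. The difference was 0.88 ± 0.33 (SE), 1.84-fold (adjusted p = 0.26), and 0.61 without placebo animal 8. Mmp3 differed by 1.04 ± 0.36 (SE), 2.06-fold (adjusted p = 0.222), with 6 of 7 animals with a tumor above all 3 without. Adamts10 was at 8.63, 8.65 and 8.66 without a tumor, a difference of -0.16 ± 0.054 (SE; 0.208).

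Within tamoxifen animals, 0 of 23 members were called for outcome, against 0.008% of all genes (limma), and 1 member, Adamts8, had an unadjusted p under 0.05, or 4.35% against 2.1%. Its difference was -0.24 ± 0.078 (SE), and tamoxifen animal 1, at 7.42, lay among the 7 animals without a tumor. The test of whether the outcome difference changed with treatment called 0 members and 0% of all genes (limma; 565 genes, 4.52%, at an unadjusted p under 0.05). Adamts8 was the 1 member with an unadjusted p under 0.05 in it, at -0.29 (adjusted p = 0.938). For tamoxifen against placebo among animals without a tumor, 0 of 23 members passed, against 0.064% of all genes, and 1 had an unadjusted p under 0.05, against 5.26%. This was Adamts8, also the 1 member whose groups did not overlap (2.37% of all genes), at 0.34 ± 0.078 (SE), 1.27-fold (limma adjusted p = 0.137). Among animals with a tumor, 0 members and 0% of genes passed (limma; 875 genes, 7%, at an unadjusted p under 0.05), and 1 member, Timp4, had an unadjusted p under 0.05, at 0.55 ± 0.24 (SE; adjusted p = 0.703).

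Mmp12, the elastase of macrophages, stood apart from the group pattern because single animals were high in it. Its median was 5.63 in placebo animals with a tumor and 5.72 in tamoxifen animals without one, while placebo animal 4 reached 8.15 and tamoxifen animal 4 reached 10.75. The 6 animals of the other groups lay between 5.28 and 5.63, under the filter level. The mean level of the 6 macrophage markers ranked placebo animal 4 highest of the 20, at 10.09, and tamoxifen animal 4 the 6th, at 9.92. The part of macrophage markers in these values was not tested.

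Of the other tested genes of its row on chromosome 9, Mmp3 had a range of 2.57 over the 20 animals, with placebo animal 7 highest. Mmp10 ran from 6.63 to 7.04 and Mmp7, or matrilysin, from 7.22 to 7.61. Mmp13, a collagenase, ran from 3.91 to 4.26, with group means of 3.93 to 4.04. Mmp9, or gelatinase B, had group means between 8.08 and 8.18, and its highest values, 8.73 and 8.71, belonged to tamoxifen animals 9 and 10. Mmp11, a stromelysin-like protease first found in the stroma of breast carcinomas, averaged 7.09 ± 0.43 (SD, n = 7) in placebo animals with a tumor and 7.49 ± 0.33 (SD, n = 3) in those without, and 7.24 ± 0.37 (SD, n = 3) and 7.13 ± 0.32 (SD, n = 7) under tamoxifen. The ranges of all 4 groups overlapped in Mmp7, Mmp9, Mmp10 and Mmp11.

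The aggrecan-cutting proteases Adamts1, Adamts4 and Adamts5 were also given whatever their values. Adamts1 and Adamts5 are direct neighbors on chromosome 16. Adamts1 averaged 8.32 ± 0.37 (SD, n = 7) and 8.41 ± 0.082 (SD, n = 3) in placebo animals with and without a tumor, and 8.08 ± 0.069 (SD, n = 3) and 8.31 ± 0.21 (SD, n = 7) in tamoxifen animals with and without one. Adamts5 averaged 10.08 ± 0.35, 10.15 ± 0.40, 10.05 ± 0.18 and 10.15 ± 0.35 in the same order, so its group means lay well within its spread. Adamts4 stayed under the filter on all but 1 array, that of placebo animal 8 at 6.88, with the next highest at 5.87. Adamts18 lay between 5.10 and 5.77 in all animals.

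Mmp14, Timp2 and the Mmp2 precursor form a complex at the cell surface, and their values were set against each other across the 20 animals, as 3 relations chosen with their values known. Mmp2 and Timp2 varied together, at a Pearson r of 0.766 and a Spearman rho of 0.765 (permutation p = 7e-05 and 0.00022, adjusted 0.00042 and 0.00066). The r was 0.614 without placebo animals 4 and 8, which lay farthest from the median of Mmp2, and 0.765 within placebo and 0.775 within tamoxifen animals. Mmp2 and Mmp14 had an r of 0.266 (permutation p = 0.26, adjusted 0.39) and a rho of 0.511 (permutation p = 0.0229, adjusted 0.0458). Without placebo animals 4 and 8 the r was 0.817, and without placebo animal 8 alone 0.836, so the pooled value rests on that animal. Within placebo animals it was 0.0778 and within tamoxifen animals 0.622. Mmp14 and Timp2 had an r of -0.186 (permutation p = 0.426, adjusted 0.426) and a rho of 0.202 (permutation p = 0.395, adjusted 0.426), with an r of 0.602 without placebo animals 7 and 8, -0.41 within placebo and 0.418 within tamoxifen animals.

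**Figure D5:**
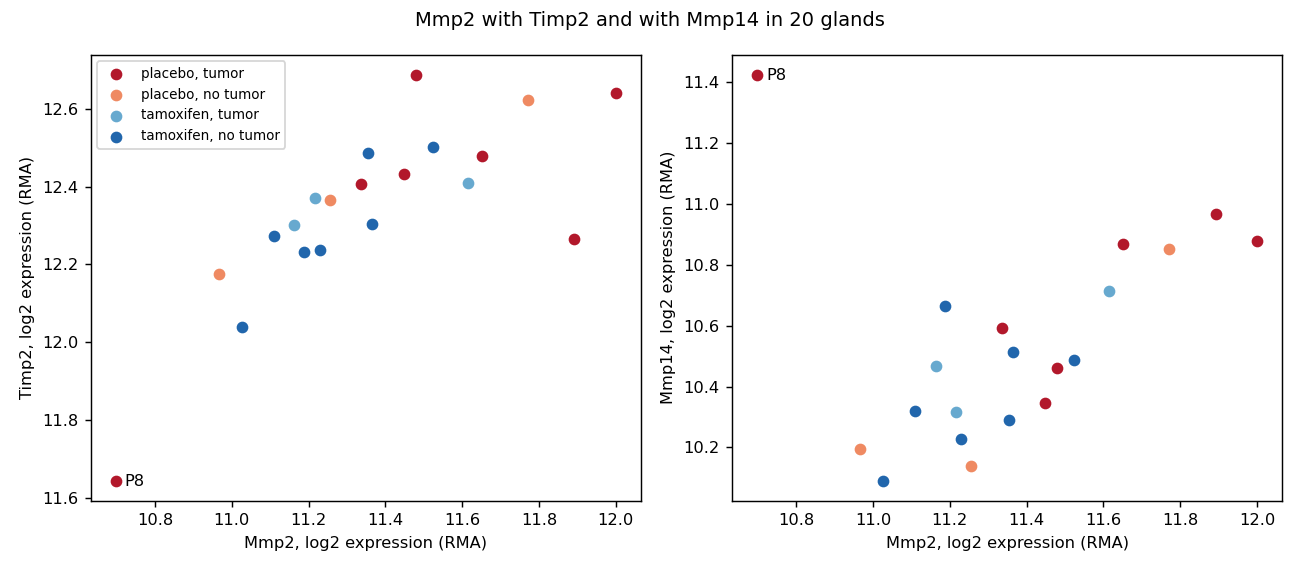
Log2 expression of Timp2 (left) and Mmp14 (right) against that of Mmp2 in the 20 animals (points, coloured by group). Placebo animal 8 (P8) has the lowest Mmp2 and Timp2 and the highest Mmp14 of all animals. Timp2 and Mmp2 had an r of 0.766, and Mmp14 and Mmp2 an r of 0.266 with that animal and 0.836 without it.

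Genes that work with these proteases were counted in the 7 against 7 contrast from lists drawn up with earlier results of these data known. The background in this contrast is 4.63% of all genes called, 2.23% up and 2.4% down. Of 13 regulators and receptors, 8 were tested, 0 rose and 1 fell: Reck, a membrane-anchored inhibitor of Mmp proteases, from 9.12 to 8.63 in mean log2 level (-0.49 ± 0.14 SE, limma adjusted p = 0.048). Cav1, Pcolce and Spock2 differed by 0.15, 0.14 and -0.04. All 14 ADAM and ADAMTS-like genes were tested and 0 passed; the smallest p were those of Adamtsl3 (0.26, adjusted p = 0.107) and Adam23 (-0.22, 0.128), and Adam8 and Adam12 stood at 0.28 and -0.19. Of 10 plasminogen system genes 5 were tested and 0 passed. Plat, the tissue plasminogen activator, differed by -0.38 ± 0.12 (SE; adjusted p = 0.0691), and Anxa2, Plaur and Serpinf2 by 0.15, 0.21 and -0.04.

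Of 19 matrix substrates 18 were tested, 0 rose and 3 fell, while 2.23% of all genes tested rose and 2.4% fell. Fn1, which encodes fibronectin, went from a mean of 12.47 in placebo animals with a tumor to 11.61 in tamoxifen animals without one, a fall of 0.85 ± 0.15 (SE; limma adjusted p = 0.00299). The laminin chain genes Lama2 and Lamb1 fell by 0.63 ± 0.095 (SE; adjusted p = 0.00106) and 0.33 ± 0.073 (SE; 0.0162), and the proteoglycan gene Dcn differed by -0.16 (0.214). The median differences of the 4 lists were 0.026, -0.010, 0.019 and -0.078, against 0.0099 over all genes. In the outcome comparison Lama2 was the 1 gene of these lists that passed, higher with a tumor, and in the treatment comparison 0 passed.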

How the data were processed

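Total RNA of 20 mammary glands was read on Affymetrix arrays. The deposited log2 values, 1 per probe set, are RMA expression according to the submitters' processing notes; the program and build are not given in the labels used here. Over 45101 probe sets they ran from 3.38 to 14.55, and they were not normalized again. Platform annotation gave 1 symbol to 34958 probe sets, 34754 of them matched by Entrez ID, several to 932 and none to 9211. The members had 70 probe sets.

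Linear models were fitted with lmFit and eBayes of limma 3.58.1 under R 4.3.3, two-sided, with Benjamini-Hochberg adjustment over 12499 genes and a threshold of 0.05, in 8 comparisons. Outcome and treatment were each fitted alone, and the other contrasts came from a model of the 4 group means. The procedure was tested on simulated data with independent noise for each gene and planted differences larger than those of the called members. It therefore does not show how well differences of their size are found. Correlations used 100000 permutations, with adjustment over the relations.

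Members and lists were chosen with earlier results of these data known. Named were all members called in any comparison, the 6 smallest p in the outcome, treatment and 7 against 7 comparisons, a preset group of family members whatever their values, and up to 4 genes per list by p. Alternatives covered scaling, filter, probe set choice, variance model, array weights, blocks and left-out animals. No array pair was identical. Labels name each array a biological replicate.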

Additional observations from a re-analysis of the deposited data

Results flagged for a closer look

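Within the groups of 7 animals, 74 sets of values (37 members in both groups) were searched for 1 animal far from the other 6, by Dixon's ratio of its gap to the whole range. Chance marks about 1 in 20, or 3.7 of 74, and 7 were marked. In placebo animals with a later tumor, placebo animal 8 was low in Timp2 at 11.64 (next 12.27) and in Timp3 at 10.46 (next 11.17). The same animal was high in Timp1 at 9.44 (next 7.96) and in Adamts4 at 6.88 (next 5.87). Placebo animal 7 was low in Mmp19 at 7.40 (next 7.75), and placebo animal 10 was high in Adamts6 at 6.25 (next 6.11), a gene under the filter. In tamoxifen animals without a tumor, tamoxifen animal 4 was high in Mmp12 at 10.75 (next 7.14). Placebo animal 8 also had the highest mean of the pan-epithelial markers of all 20 animals, 10.61, and the lowest of the macrophage markers, 8.90, and tamoxifen animal 4 the highest mean of the B cell markers, 11.24. Their part in these values was not tested.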

How the results depend on the processing

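In the 7 against 7 contrast, the 3 calls became 1 with the mean of all probe sets per gene, 1 without placebo animals 7, 8 and 9, and 1 to 4 when single animals were left out (1 without tamoxifen animal 4 or 6). Over all genes the 579 calls became 356 without moderation of variances and 141 without placebo animals 7, 8 and 9. With the animal number as a replicate block, member calls were 7 in the 7 against 7 contrast, 6 for outcome, 1 for treatment and 2 for outcome within placebo animals, while calls over all genes were 1647, 1426, 235 and 602. Blocked in this way, the 7 against 7 and outcome differences both rest only on numbers 4, 7, 8 and 9. At these numbers the placebo animal had a tumor and the tamoxifen animal had none, while all other numbers had the same outcome in both treatments. The 2 comparisons are then 1 difference with opposite signs, and treatment and outcome cannot be told apart in it. Under the block Adamts8 (0.21, limma adjusted p = 0.062) and Adamts10 (0.17, 0.106) did not pass in the 7 against 7 contrast, and Adamts9 did (-0.44, 0.0223). The member called for treatment was Adamts8 (limma adjusted p = 0.0262). Those called for outcome included Timp1 (1.175, limma adjusted p = 0.0164), Adamts12 (0.547, 0.0198), Mmp3 (1.167, 0.0215), Mmp14 (0.661, 0.029) and Adamts9 (0.437, 0.0309). Deviations of same-numbered animals correlated at -0.101 to 0.586, over 0.1 in 4 of 10 pairs. The same-numbered animal was the best match in 3 of 10. No label states a pairing, and these correlations cannot decide whether the numbers pair the animals. Leaving out single animals gave 0 to 1 member calls for outcome and 0 to 1 for treatment. The difference of Timp3 between treatments turned to -0.083 with array weights, -0.0070 with outcome as a covariate and -0.11 without placebo animals 7, 8 and 9. In the 7 against 7 contrast it turned to -0.0399 and -0.13 with array weights and without those 3 animals, and for outcome to 0.026 without them. Leaving out single animals gave Timp3 -0.058 to 0.078 for treatment and -0.036 to 0.17 in the 7 against 7 contrast, the lowest of both without placebo animal 8. Mmp3 passed in the 7 against 7 contrast with array weights (-1.07, adjusted p = 0.0201). Of 1165 recomputed differences of named members, 1124 kept direction and side of the threshold, 14 lost and 19 gained a call, and 8 turned. Of all tested members with an unadjusted p of at least 0.05, at least 1 setting turned the sign in 12 of 15 in the 7 against 7 contrast, 9 of 15 for outcome and 9 of 20 for treatment. The cause was not tested.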

Other observations

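The values of some members were not given above. Adamts7, which like Adamts12 cuts cartilage oligomeric matrix protein, stayed under the filter on all 20 arrays, with lowest, median and highest log2 values of 5.35, 5.59 and 6.01 in placebo animals with a later tumor and of 5.16, 5.26 and 5.36 in tamoxifen animals without one. Placebo animals without a tumor were at 5.18, 5.20 and 5.49, and tamoxifen animals with one at 5.23, 5.34 and 5.47. Adamts3, which processes procollagen, ran from 5.26 to 6.22 in placebo animals with a tumor, with placebo animal 8 highest, and from 5.18 to 5.48 in tamoxifen animals without one. Among tested members, Mmp24, a membrane-bound Mmp, ran from 7.69 to 8.10 over all 20 animals, Adamts16 from 7.20 to 7.61 and Mmp23 from 8.16 to 8.83, and their 4 groups overlapped. Mmp20, known from developing tooth enamel, ran from 4.57 to 4.90.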
